A study of Danio rerio with 32 samples.

Results

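The Nrf2 factors of zebrafish, their Keap1 repressors and 6 antioxidant genes downstream of them were followed over a concentration series of retene. The 10 genes were nfe2l2a and nfe2l2b, which encode Nrf2, keap1a and keap1b, which encode Keap1, and the targets gclc, gclm, gsr, prdx1, srxn1 and nqo1. They were found in the expression table by their NCBI gene identifiers, and all 10 were among its 22686 genes, so none was lost to the filter on low counts. Tropical 5D zebrafish were exposed to retene with DMSO as the vehicle from 6 hpf (hours post fertilization), and the control received only DMSO. The concentrations of retene were 0.205 and 0.512 µM, 1.28 and 3.2 µM, and 8 µM, 20 µM and 50 µM. At 48 hpf, 4 pools of 9 larvae per group were collected for mRNA sequencing, which gave 32 pools in 8 groups. All groups shared the fish line, the age and the vehicle, the concentrations are nominal, and only larvae without visible malformations were pooled. Each pool held whole larvae, so that a change within 1 organ is averaged with all others, and fewer cells of a type cannot be told apart from less RNA per cell.

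Nrf2 is a basic leucine zipper transcription factor that turns on antioxidant and detoxification genes. In unstressed cells, Keap1 holds Nrf2 and delivers it to a Cul3 ubiquitin ligase for degradation. Oxidants and electrophiles modify cysteines of Keap1, after which Nrf2 accumulates, pairs with small Maf proteins and binds antioxidant response elements of its target genes. Much of this regulation acts on the protein and is not visible in mRNA. Zebrafish carry duplicate copies of both genes, and in zebrafish embryos nfe2l2a has been described as the main activator and nfe2l2b as largely repressive. Retene is a polycyclic aromatic hydrocarbon that activates the aryl hydrocarbon receptor (AHR), and metabolism of such compounds by cytochrome P450 enzymes can yield reactive products.

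The deposited values are on the log2-like scale of a variance-stabilizing transformation and could be turned back into whole reads. A pool held between 7720701 and 8656870 reads on genes. Levels below are normalized counts, that is, reads divided by the size factor of the pool, while the log2 fold change (Log2FC) and its standard error are on the deposited scale, which understates the change of genes with few reads. Expression was called changed at an adjusted p-value under 0.05 in limma, against the control and over all 22686 genes. Since the replicates are pools, the p-values of limma rest on the spread between pools, which was estimated for each gene over all 8 groups together. The exposure was visible in cyp1a, the classical AHR target, which averaged 26.1, 81.7, 197, 643, 1943, 4535, 9090 and 19830 normalized counts from control to 50 µM. On the first principal component, control replicate 2 (-30.3) and 8 µM replicate 4 (-26.2) stood apart, as did 50 µM replicate 4 on the second (-26.1). With them, 50 µM replicate 2 (-12.9 on the first) was set apart without a fixed limit. It lay no farther out than 0.512 µM replicate 2, which was kept (13.7 on the second). Counts of calls are also given without these 4 pools, which leaves fewer pools at 50 µM.

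Of the 10 genes, 6 rose at 50 µM (nfe2l2a, nfe2l2b, keap1a, gsr, prdx1 and nqo1) and none fell. The members were chosen with earlier results of these data known. The authors had already listed nfe2l2b, nfe2l2a and gsr from the same pools, so the share of the 10 is a description. Among all genes, 1.45% were called higher and 1.02% lower at 50 µM (330 and 232 of 22686). This background itself rested on single pools, with 428 genes called higher and 502 lower without 50 µM replicate 2, and between 322 and 361 called in all without control replicate 2 or 50 µM replicates 1, 3 or 4. At 20 µM, 3 of the 10 rose (nfe2l2b, gsr and prdx1), against 0.388% of all genes called higher. Of the 10, 1 rose (nfe2l2b) without control replicate 2 or 20 µM replicates 2 or 3. Over all genes 89, 92 and 87 were then called, against 133 with all pools. At 8 µM only nfe2l2b among the 10 rose, against 0.264% of all genes (60 higher and 18 lower). Without 8 µM replicate 4, 2 of the 10 rose (nfe2l2b and nqo1), and 148 of all genes were called higher and 188 lower. None of the 10 was called at 3.2 µM or below in either direction. Over all genes 0.0573% were called higher and 0.0264% lower at 3.2 µM, 0.0441% higher and 0.0397% lower at 1.28 µM, and 0% at the lower concentrations. The median Log2FC of the 10 genes at 50 µM was 0.30, against 0.00 over all genes. Without the 4 pools set apart, 5 of the 10 rose at 50 µM (nfe2l2a and nqo1 were lost and gclm was gained), while 179 of all 22686 genes were called higher and 190 lower.

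**Figure D1:**
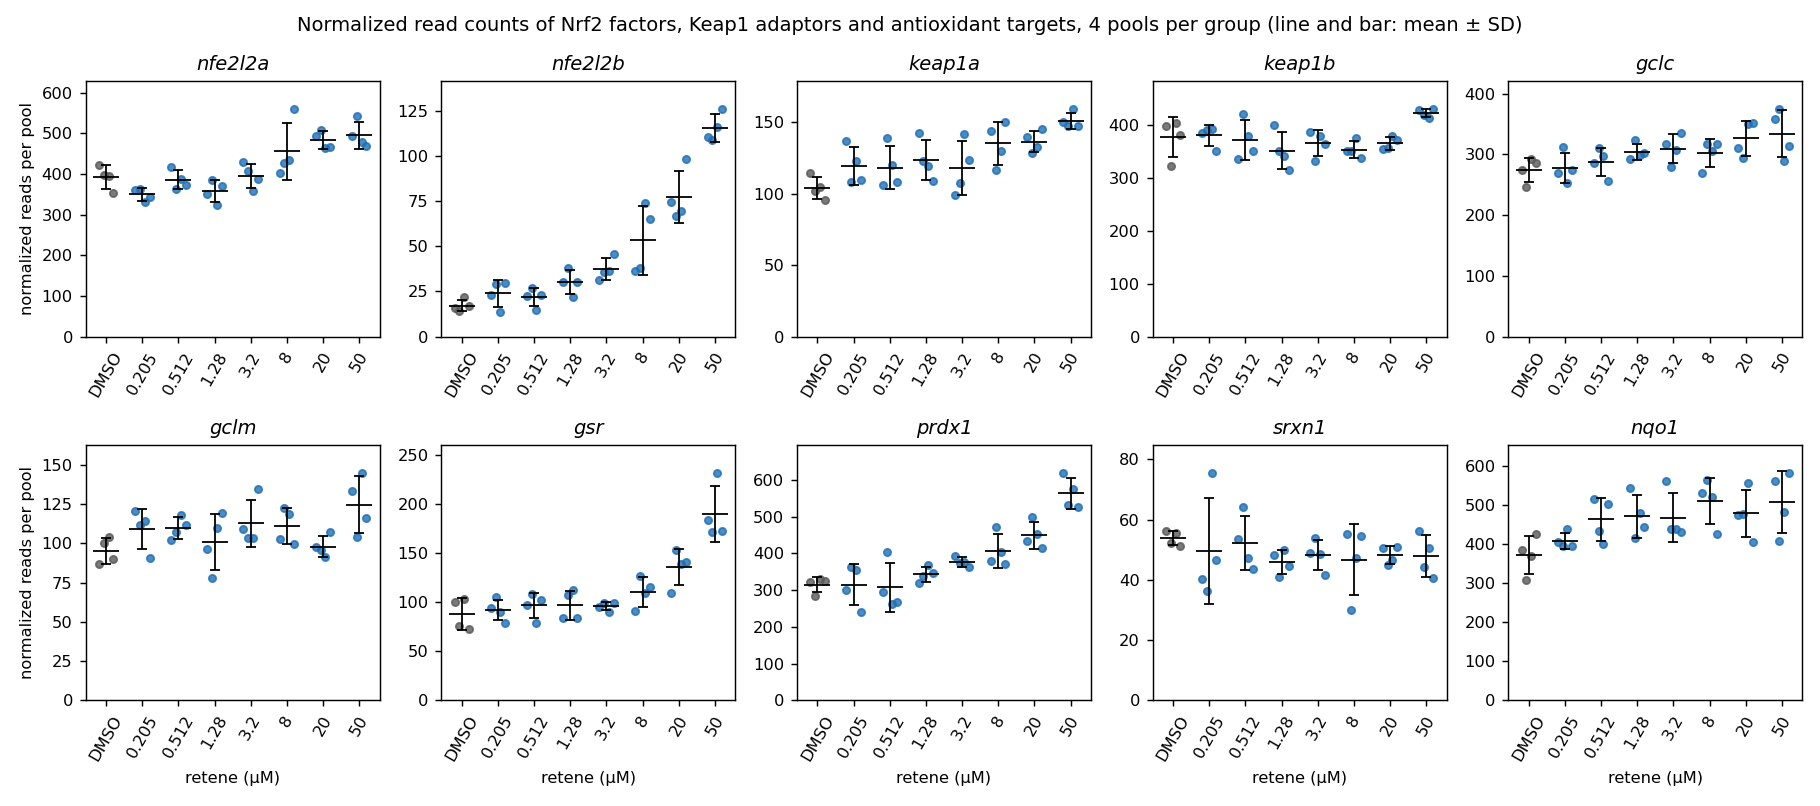
Normalized counts (y axis, from 0) of the 10 genes in the control (DMSO) and at 7 concentrations of retene in µM (x axis), with 1 point for each of the 4 pools, a line at the group mean and a bar of 1 SD to each side. The pools of nfe2l2b at 50 µM sit between 108.9 and 125.6, all above the 4 control pools, whereas those of srxn1 overlap the control pools.

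The most responsive of the 10 genes was nfe2l2b (gene 100873093), which averaged 6.73 times its control level at 50 µM. The control pools held 15.8, 14.3, 21.6 and 16.8 normalized counts. Pools of 0.205 µM held 23.1, 29.2, 13.6 and 29.7, and pools of 0.512 µM held 22.4, 26.9, 14.8 and 22.8. Both of these groups overlapped the control. At 1.28 µM the pools held 30.2, 38.0, 21.8 and 30.4 normalized counts, and at 3.2 µM 31.3, 35.5, 36.2 and 45.6. From 1.28 µM upward every exposed pool lay above every control pool. At 1.28 µM this was by a narrow margin, with 21.77 in the lowest exposed pool (21 reads) and 21.63 in the highest control pool (23 reads). The difference at 1.28 µM did not pass the test in limma (adjusted p-value 0.25), and 3.33% of all genes separated in the same way. The pools of 8 µM were the most spread, with 36.2, 37.8, 73.7 and 65.0, those of 20 µM held 74.6, 66.6, 69.3 and 98.0, and those of 50 µM held 110.2, 108.9, 116 and 126. The group means, in multiples of the control mean, were 1.40, 1.27, 1.76, 2.17, 3.11, 4.51 and 6.73 from 0.205 to 50 µM.

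In limma, nfe2l2b rose at 8 µM with a Log2FC of 0.57 (SE 0.091, adjusted p-value 0.000541). It rose by 0.84 at 20 µM (adjusted p-value 1.47e-07) and by 1.17 at 50 µM (adjusted p-value 3.19e-11). With few reads in the control, the deposited scale compresses these differences, and on log2(normalized count + 1) the Log2FC of nfe2l2b at 50 µM was 2.70 (SE 0.234). On that scale the gene was also called at 3.2 µM (Log2FC 1.08, adjusted p-value 0.0441), where the deposited scale gave a Log2FC of 0.37 (SE 0.091, adjusted p-value 0.145). When only the pools of 8 µM and the control were fitted, the call at 8 µM was lost (adjusted p-value 0.124). With DESeq2 on the same pools, the authors listed nfe2l2b as differentially expressed from 3.2 µM upward. The lowest concentration with a call thus depends on the test.

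The other Nrf2 gene, nfe2l2a (gene 360149), changed far less. Its pools of 50 µM held 493, 543, 478 and 468 normalized counts, against 423, 396, 396 and 354 in the control. The groups did not overlap, and the mean was 1.26 times that of the control (Log2FC 0.28, SE 0.068, adjusted p-value 0.018). The pools of 20 µM held 493, 509, 464 and 465, also above all control pools, but did not pass the test (Log2FC 0.25, adjusted p-value 0.103). At 0.205 µM the mean of nfe2l2a, 349 ± 15.4 (SD, n = 4), was below that of the control, 392 ± 28.4 (SD, n = 4), without passing the test. The call at 50 µM depended on single pools, since its adjusted p-value was 0.079 without control replicate 4, 0.0528 without 50 µM replicate 2 and 0.0722 without the 4 pools set apart.

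Both keap1 genes, whose product is the adapter that hands Nrf2 to degradation, were compared next. The pools of keap1a (gene 321837) held 150.3, 148, 159 and 147 normalized counts at 50 µM, against 114, 102, 104 and 95.7 in the control. The groups did not overlap, and keap1a rose to 1.45 times the control mean (Log2FC 0.33, SE 0.069, adjusted p-value 0.00436). Its pools also lay above all control pools at 8 and 20 µM, where the means were not called (Log2FC 0.22 and 0.23). For keap1b (gene 100003679) the pools held 429, 418, 413 and 429.5 at 50 µM, against 398, 322, 404 and 382 in the control. These did not overlap either, but the mean was only 1.12 times that of the control, and the difference did not pass the test (Log2FC 0.14, 95% interval 0.01 to 0.27, adjusted p-value 0.285). From 0.512 to 20 µM the Log2FC of keap1b was between -0.08 and -0.01.

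Glutathione is the main small thiol of the cell. Its synthesis starts with glutamate-cysteine ligase, of which gclc encodes the catalytic and gclm the modifier subunit. Glutathione is kept reduced by glutathione reductase, the product of gsr. Of these genes gsr (gene 553575) rose the most. Its pools held 183, 172, 231 and 172 normalized counts at 50 µM, against 99.6, 75.3, 103 and 72.0 in the control. The groups did not overlap, and the mean of gsr was 2.17 times that of the control (Log2FC 0.69, SE 0.082, adjusted p-value 7.2e-07). At 20 µM its pools held 109, 153, 139 and 140.3, again above all control pools (Log2FC 0.37, adjusted p-value 0.0207). That call was less stable than the one at 50 µM, for it was lost in 5 of the 8 fits that left out 1 pool of 20 µM or of the control (control replicates 2 and 4, 20 µM replicates 2, 3 and 4), with adjusted p-values up to 0.107. Below 8 µM the Log2FC of gsr was between 0.04 and 0.08.

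Neither ligase subunit was called at any single concentration. Pools of gclc (gene 326857) held 358, 374, 289.8 and 314 normalized counts at 50 µM, against 274, 247, 292.5 and 285 in the control, and 3 of the 4 exposed pools were above all control pools. The mean of gclc was 1.22 times that of the control (Log2FC 0.21, SE 0.068, 95% interval 0.08 to 0.35, adjusted p-value 0.0916). Without 50 µM replicate 3, the pool that overlapped, it would have passed (adjusted p-value 0.0452). Without the 4 pools set apart, gclc moved the other way, to a Log2FC of 0.14 (adjusted p-value 0.508). Pools of gclm (gene 333974) held 133, 104, 145 and 117 at 50 µM, against 86.8, 100, 104 and 89.8 in the control. The mean of gclm was 1.31 times that of the control (Log2FC 0.22, SE 0.074, 95% interval 0.07 to 0.37, adjusted p-value 0.109), and it passed without 50 µM replicate 2 (adjusted p-value 0.0374). At 20 µM the Log2FC was 0.02 for gclm and 0.19 for gclc.

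Peroxiredoxins are thiol enzymes that reduce hydrogen peroxide, and sulfiredoxin, the product of srxn1, restores them once they are overoxidized. The pools of prdx1 (gene 541344) held 619, 532, 577 and 527 normalized counts at 50 µM, against 322, 284, 329 and 325 in the control. The mean of prdx1 was 1.79 times that of the control without overlap (Log2FC 0.68, SE 0.089, adjusted p-value 3.7e-06). Its pools of 20 µM held 433, 500.4, 453 and 414 (Log2FC 0.41, adjusted p-value 0.0146), a call lost without control replicate 2 or 20 µM replicates 2 or 3 (adjusted p-values 0.0812, 0.0923 and 0.0513). Pools of prdx1 already lay above all control pools at 3.2 and 8 µM, with uncalled Log2FC values of 0.20 and 0.29.

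In contrast to prdx1, srxn1 (gene 100331561) was not called at any concentration. Its pools held 56.1, 44.4, 50.6 and 40.5 normalized counts at 50 µM, against 56.2, 52.4, 55.5 and 51.3 in the control. The groups overlapped, and the Log2FC was -0.08 (SE 0.081, 95% interval -0.24 to 0.09, adjusted p-value 0.708). At all 7 concentrations the Log2FC of srxn1 was between -0.10 and -0.03. Its pools lay below all control pools at 1.28 and 20 µM, as was the case for 3.65% and 3.60% of all genes, and neither difference passed the test.

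The product of nqo1 reduces quinones to hydroquinones, and in mammals the gene is controlled by both Nrf2 and AHR. For nqo1 (gene 322506) the Log2FC was 0.38 at 8 µM, 0.30 at 20 µM and 0.37 at 50 µM. Pools of 8 µM held 531, 565, 522 and 426 normalized counts, against 386, 308, 369 and 425 in the control, and lay just above all control pools. The difference of nqo1 at 8 µM did not pass the test (SE 0.097, adjusted p-value 0.0838). At 50 µM its pools held 561, 408, 482 and 583, and replicate 2 fell within the control range. The mean of nqo1 at 50 µM was 1.37 times that of the control (Log2FC 0.37, SE 0.097, adjusted p-value 0.0323). This call was lost in 6 of the 8 fits that left out 1 pool of either group (control replicates 1, 2 and 3, 50 µM replicates 1, 3 and 4), with adjusted p-values up to 0.157, and without the 4 pools set apart (0.0916). Without 8 µM replicate 4, nqo1 was called at 8 µM (Log2FC 0.45, adjusted p-value 0.0182).

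**Figure D2:**
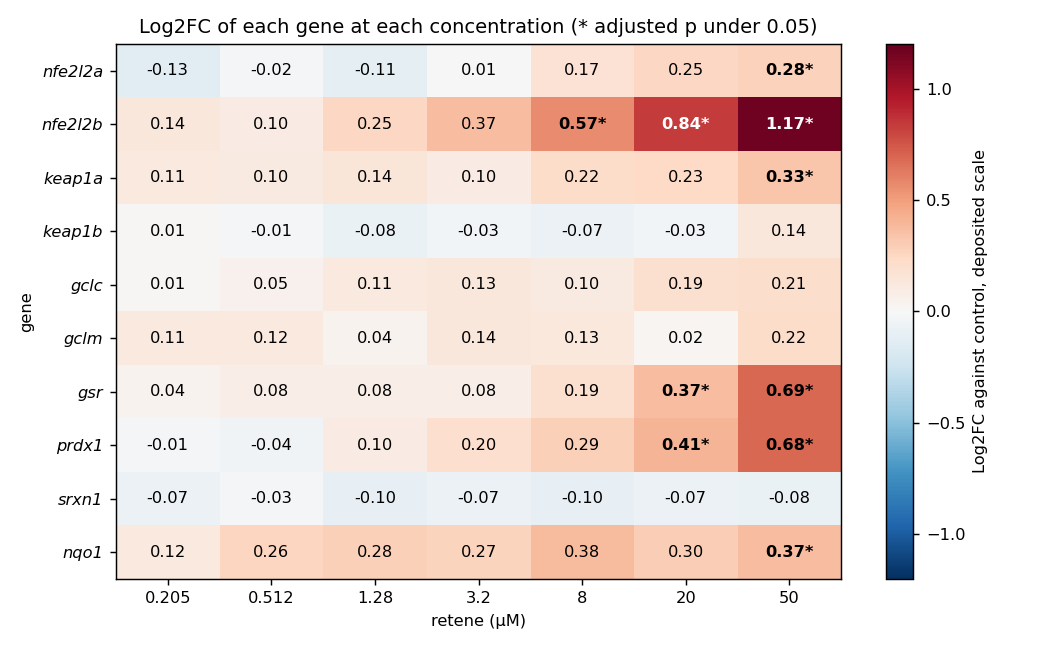
Log2FC against the control on the deposited scale (color and printed value) of the 10 genes (rows) at 7 concentrations of retene in µM (columns), with a star where the adjusted p-value of limma was under 0.05. Calls in limma begin at 8 µM with nfe2l2b (0.57) and reach 6 genes at 50 µM.

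The number of genes whose 4 exposed pools all lay above all 4 control pools was 0, 0, 1, 3, 4, 6 and 6 of the 10 from 0.205 to 50 µM. Over all genes this held for 2.13%, 1.67%, 3.33%, 2.77%, 2.83%, 3.79% and 4.13%. At 3.2 µM the 3 genes were nfe2l2b, prdx1 and nqo1. The 6 genes at 20 µM included gclc in place of keap1b, which was among the 6 at 50 µM.

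A linear trend over the rank of the 8 groups was called upward for 7 of the 10 genes, against 2.73% of all genes upward and 2.55% downward. These were the 6 genes called at 50 µM and gclc. The slope per step of rank was 0.16 on the deposited scale for nfe2l2b (adjusted p-value 7.2e-14), 0.10 for prdx1 (1.53e-08), 0.08 for gsr (9.18e-08), 0.05 for nfe2l2a (5.92e-06), 0.05 for nqo1 (0.00617), 0.04 for keap1a (0.00112) and 0.03 for gclc (0.00883). A called trend does not mean a steady rise, since the highest mean of nqo1 was at 8 µM. Without the 4 pools set apart, the trend of gclc was lost (adjusted p-value 0.103). No trend was called for keap1b, gclm and srxn1, with adjusted p-values of 0.647, 0.355 and 0.684.

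None of the 10 genes was called in limma between a concentration and the next lower one. Few genes of the whole table were, with 0, 0.022, 0.00882, 0.0309, 0.0529 and 0.0529% called over the 6 steps from low to high. In the order of their levels, neighboring groups overlapped in most cases. From 20 to 50 µM, the 4 pools of 50 µM lay above those of 20 µM for 5 of the 10 genes (nfe2l2b, keap1a, keap1b, gsr and prdx1), against 1.71% of all genes. Over this step the Log2FC was 0.33 for nfe2l2b, 0.32 for gsr, 0.27 for prdx1, 0.17 for keap1b and 0.09 for keap1a. Their unadjusted p-values in limma were 0.00103, 0.000464, 0.00425, 0.0112 and 0.185, and their adjusted p-values were at least 0.374.

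Whether the copies of a gene or the subunits of an enzyme moved unequally was tested by the difference of their deposited values within each pool, a quantity that also holds the difference in transcript length and is therefore compared only between groups. For nfe2l2b minus nfe2l2a it was -1.53 ± 0.128 at 50 µM and -2.42 ± 0.116 in the control (SD, n = 4 each), a shift of 0.89 toward nfe2l2b (two-sided exact permutation test, p = 0.0286, the smallest value that 4 against 4 pools allow, and 0.0857 after adjustment over 3 pairs). On log2(normalized count + 1), which does not compress genes with few reads as strongly, this shift was 2.36. For keap1b minus keap1a it was 1.095 ± 0.0522 at 50 µM and 1.29 ± 0.115 in the control (SD, n = 4 each), a shift of -0.19 (exact p = 0.0571, adjusted 0.0857). On log2(normalized count + 1) the keap1 shift was -0.36 with the groups apart (exact p = 0.0286). For gclm minus gclc the values were -0.996 ± 0.236 at 50 µM and -1.01 ± 0.111 in the control, a shift of 0.01 (exact p = 0.971, n = 4 each), and 0.10 on log2(normalized count + 1) (exact p = 0.629).

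**Figure D3:**
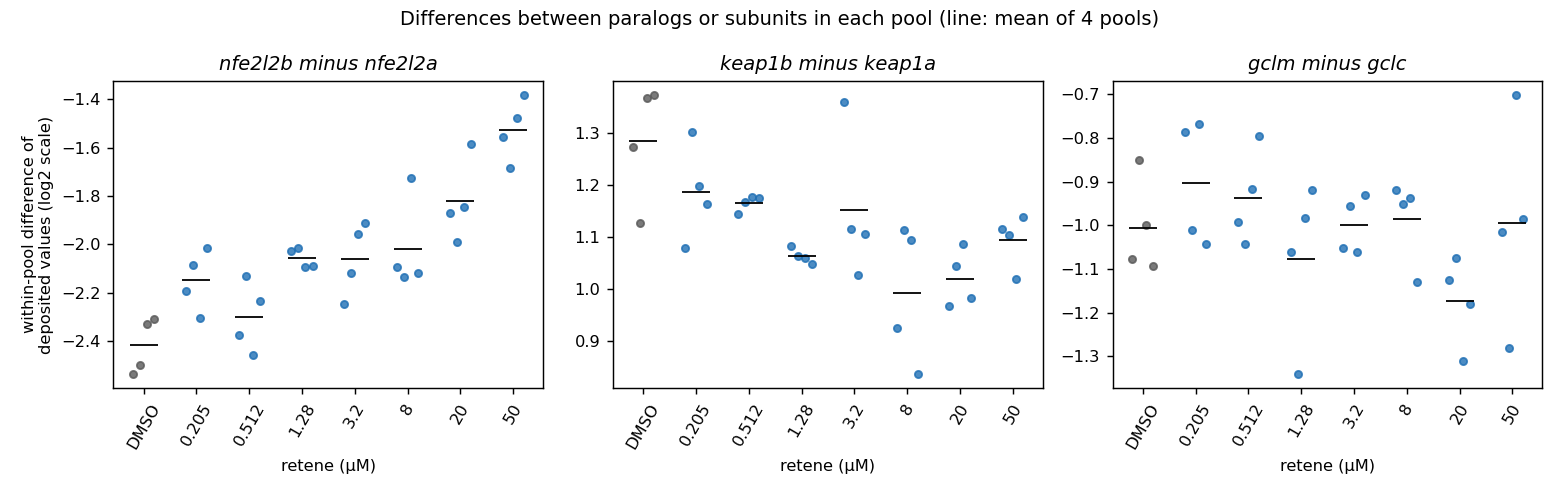
Difference of deposited values within a pool (y axis, log2-like units) for the 3 gene pairs in the control (DMSO) and at 7 concentrations of retene in µM (x axis), with 1 point for each of the 4 pools of a group and a line at their mean. The pools of 50 µM and of the control separate for nfe2l2b minus nfe2l2a, with means of -1.53 at 50 µM and -2.42 in the control, and overlap for gclm minus gclc.

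The genes whose deposited values followed each member most closely were listed by Pearson correlation over the 32 pools, which share the concentrations, so that r is a description. For nfe2l2b these were foxq1a, a forkhead factor (r = 0.954), and the cytochrome P450 genes cyp1c2 (0.953) and cyp1c1 (0.952). After the group means were subtracted, r with nfe2l2b was 0.545, 0.292 and 0.553 for the same genes. For gsr they were fgf7, a fibroblast growth factor (0.908), the ADP-ribosyltransferase gene tiparp (0.905) and the AHR repressor gene ahrra (0.892), with 0.394, 0.237 and 0.175 within groups. For prdx1 they were gstp1.2, a glutathione S-transferase (0.911), the sulfotransferase gene sult6b1 (0.904) and foxf2a (0.888), with 0.474, 0.379 and 0.277 within groups. For nfe2l2a, plekhg2 led with 0.925 (0.768 within groups), followed by nuak1b (0.864, within groups 0.485) and slc6a4a (0.853, within groups 0.684). For keap1a, r was lower, with 0.774 for foxq1a, 0.737 for ccn2b and 0.736 for gstp1.2, and within groups 0.5, 0.319 and 0.197. The first gene reached 0.782 for nqo1 (trappc2), 0.753 for keap1b (pdhx), 0.733 for gclm (phlda3), 0.701 for gclc (txnrd3) and 0.573 for srxn1 (gfi1b). Within groups, r for these genes was 0.646, 0.772, 0.695, 0.514 and 0.532 in the same order. Among the members, gsr and prdx1 had r = 0.872 over all pools and 0.536 within groups, while nfe2l2b and prdx1 had 0.826 and -0.187.

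Other genes of the pathway were taken from a list of 101 symbols, of which 90 were in the table. At 50 µM, 10 of the 90 rose and 1 fell, and the median Log2FC of the list was 0.05. The share called higher was 11.1% of the list and 1.45% of all genes. None of the list was called in limma at 3.2 µM or below, while 3 rose at 8 µM (gstp1.2, hmox1a and sqstm1) and 4 at 20 µM (the same 3 and cbr1l). Over all genes 0.264% rose at 8 µM and 0.388% at 20 µM. Without 8 µM replicate 4, 6 of the list and 336 of all genes were called at 8 µM, against 3 and 78 with all pools. Without control replicate 2, 1 of the list and 48 of all genes were called at 8 µM. At 20 µM, 2 of the list were called without control replicate 2 or 20 µM replicates 2, 3 or 4. Over all genes 89, 92, 87 and 111 were then called, against 133 with all pools. Without the 4 pools set apart, 9 of the 90 and 369 of all genes were called at 50 µM. On the deposited scale, the largest Log2FC of the list at 50 µM was that of the glutathione S-transferase gene gstp1.2, with 8970 ± 467 normalized counts at 50 µM and 2301 ± 258 in the control (SD, n = 4 each), a mean 3.90 times as high (Log2FC 1.92, adjusted p-value 2.23e-15). Its close copy gstp1.1, with few reads, also rose and had the higher ratio, with 29.5 ± 15 normalized counts at 50 µM and 6.50 ± 1.54 in the control (SD, n = 4 each), a mean 4.53 times as high (Log2FC 0.53, adjusted p-value 0.00164). How many reads matched both copies, and were dropped or assigned to 1 of them, was not tested.

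No gene of the Nrf2 family or its partners was called at 50 µM (0 of 11, among them the small Maf genes mafga and mafgb and the Bach repressor genes). Over all genes 1.45% were called higher and 1.02% lower, so that 0 of 11 is near the share of all genes. The median Log2FC of the 11 genes was -0.08. Among them nfe2l1a and bach1a each had -0.23, with adjusted p-values of 0.229 and 0.324. Of 10 genes for Nrf2 degradation and Keap1 partners, 1 rose. This was sqstm1, whose product p62 binds Keap1, with 707 ± 129 normalized counts at 50 µM and 425 ± 41.2 in the control (SD, n = 4 each; Log2FC 0.62, adjusted p-value 7.11e-06).

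Of the 25 measured genes for heme, iron and other antioxidant enzymes, 4 rose at 50 µM (16%), against 1.45% of all genes. The heme oxygenase gene hmox1a averaged 256 ± 45.9 normalized counts at 50 µM and 95.2 ± 20.9 in the control (SD, n = 4 each), a Log2FC of 0.93 (adjusted p-value 8.83e-05). The carbonyl reductase gene cbr1l had a Log2FC of 0.86 (adjusted p-value 6.26e-07), the microsomal glutathione transferase gene mgst3b 0.61 (6.89e-05) and the pirin gene pir 0.41 (0.000369). Glutathione synthesis and use had 2 of 20 called higher (10%), both of them gstp genes. Neither the synthetase gene gss (Log2FC 0.10) nor the cystine transporter gene slc7a11 (Log2FC -0.16) passed the test.

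Among 16 thioredoxin and peroxiredoxin genes, 2 rose (12.5%) and 1 fell, against 1.45% of all genes called higher and 1.02% lower. The gene that fell was txnipa, which encodes a thioredoxin-binding protein, with 1543 ± 132 normalized counts at 50 µM and 2053 ± 153 in the control (SD, n = 4 each; Log2FC -0.39, adjusted p-value 0.00335). The peroxiredoxin genes prdx6 and prdx3 rose, as did 1 of 8 genes for NADPH supply, the transketolase gene tktb. These 3 genes, gstp1.1, nfe2l1a, bach1a, gss and slc7a11 were named after their values were seen.

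**Figure D4:**
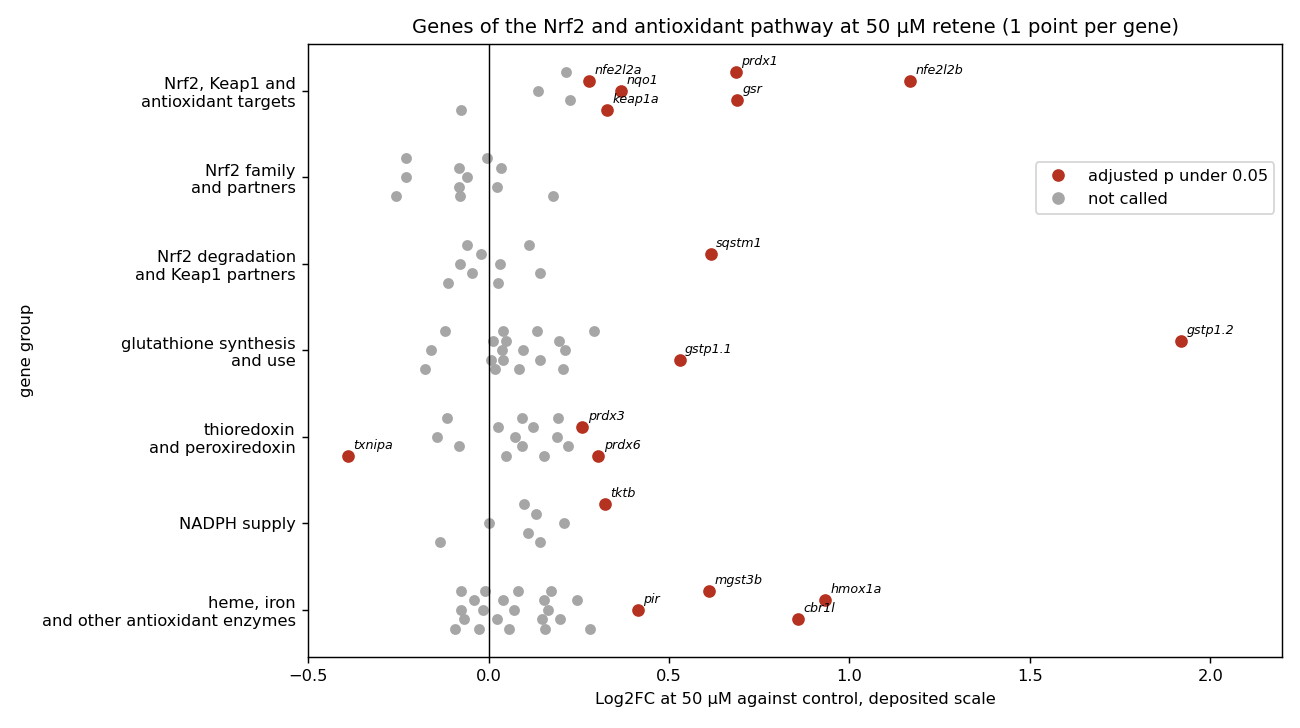
Log2FC at 50 µM retene against the control on the deposited scale (x axis) for the 10 genes (top row) and 90 further pathway genes in 6 groups (rows), with 1 point per gene, red where the adjusted p-value of limma was under 0.05. Among the further genes gstp1.2 lies farthest to the right at 1.92, and txnipa is the only one called lower, at -0.39.

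In the GRCz12tu annotation of RefSeq, 4 of the 10 genes overlap a neighboring gene. Overlap here means whole gene spans, introns included, on either strand. The authors counted reads on GRCz11, and whether exons are shared was not examined. Whether the libraries kept strand is not given in the sources used here. For nfe2l2b the overlapping gene is cycsb, which encodes a cytochrome c and rose as well at 50 µM (Log2FC 0.31, SE 0.075, adjusted p-value 0.0179). For nfe2l2a it is hnrnpa3 (Log2FC -0.02, adjusted p-value 0.95) and for prdx1 it is fzr1b (Log2FC 0.15, adjusted p-value 0.255). The gene that overlaps srxn1 had no row in the table used here. Which reads belong to which gene of such a pair was not tested.

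Cell type markers were examined because pools of whole larvae can differ in composition. Of 36 measured markers, none rose and 4 fell at 50 µM, against 1.45% of all genes called higher and 1.02% lower. These were the neutrophil peroxidase gene mpx (Log2FC -0.47), the keratin gene krt4 (-0.33) and the cartilage genes acana (-0.44) and col2a1a (-0.39). The other skin markers were not called and differed in sign, with a Log2FC of 0.14 for krt5 and -0.14 for tp63. The remaining cartilage marker matn1 (-0.02) and the neutrophil markers lyz (-0.40) and npsn (-0.13) were not called either. In the other direction, he1.1 of the hatching gland (Log2FC 0.51, limma adjusted p-value 0.058) fell just short of a call. So did the neuron marker gap43 (0.43, 0.0533). The hatching gland marker ctslb (0.23) and the neuron markers elavl3 (-0.06) and snap25a (0.06) were not called. Over the 32 pools, krt4 made up 99.5 to 99.7% of the summed skin markers. The summed normalized counts of the 3 neutrophil markers were 315 to 342 at 50 µM, against 369 to 580.3 in the control. Those of the 3 cartilage markers were 367 to 457 against 487 to 550.1, those of the 3 skin markers 67240 to 76990 against 77940 to 96020, and those of the 2 hatching gland markers 3924 to 5546 against 2708 to 3530. The summed markers of liver, red cells, macrophages, cardiac and skeletal muscle, lens and neurons overlapped between the groups. No neutrophil, cartilage, skin or hatching gland marker in the table was at 0 in any pool. The part of these differences in the changes of nfe2l2b, gsr, prdx1 and the other genes at 50 µM was not tested.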

How the data were processed

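Sequencing reads of 32 pools were processed by the authors, who aligned them with STAR to GRCz11, assigned them to genes with HTSeq, dropped genes with 0 reads in 8 or more of the 32 pools and normalized with DESeq2. The deposited log2 values are the authors' normalized counts after a variance-stabilizing transformation. A closed-form inverse of this transformation gave back the reads, where 100% of values lay within 0.01 of a whole read, with size factors equal to the median of ratios. Genes were named from RefSeq (GRCz12tu), which matched 21030 of 22686 genes. Because the builds differ, no coordinates are given.

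The deposited log2 values were tested with limma 3.58.1 in R 4.3.3 in place of the authors' count model, which was not refitted to the recovered reads. The fit had 1 mean per group over all 32 pools with variances moderated toward a mean-variance trend (empirical Bayes). Benjamini-Hochberg adjustment ran over all 22686 genes within each comparison. Each concentration was compared with the control and with the next lower concentration, and a linear trend over the rank of the 8 groups was tested. Pairs of genes were compared by exact permutation tests. In simulated data of 22686 genes for 50 µM against control, 40 of 100 genes with an absolute log2 fold change of 0.5 and 75 of 100 with 1 were recovered, with 6 false calls. These fold changes were set on the counts, not on the deposited scale, and only in genes above a minimum mean count. Changes of the size seen for most of these genes can therefore be missed. The reads are not unique molecules, and with 4 pools per group the spread between pools limits the precision.

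The members and gene lists were chosen with earlier results of these data known. The text names all 10 members, cyp1a and the pathway genes with the smallest adjusted p-values at 50 µM (up to 6 higher and 4 lower). The text also names the 3 genes most correlated with a member, or only the first for nqo1, keap1b, gclm, gclc and srxn1. It also names genes that overlap a member, cell type markers and some further pathway genes, picked after their values were seen where so stated. Alternatives were log2(normalized count + 1) and + 0.5, voom with total reads as library size, quantile normalization, no mean-variance trend, only the compared groups, a replicate block, a mean normalized count of at least 10, adjustment over 7 concentrations, an adjusted p-value under 0.01, leaving out the 4 pools set apart and leaving out each pool. Python 3.11.15 with NumPy 2.4.6, SciPy 1.17.1, pandas 2.3.3 and matplotlib 3.10.9 was used for the rest.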

Additional observations from a re-analysis of the deposited data

Results flagged for a closer look

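Each group of 4 pools was examined for 1 pool far from the other 3, by the gap to its nearest neighbor divided by the range of the group. The limit was Dixon's critical value for 4 pools. Of 80 groups (10 genes in 8 groups), 3 passed the limit, whereas chance flags about 1 in 20. For keap1b at 0.205 µM, replicate 4 was the lowest with 351 normalized counts, and the gap was 0.832 of the range. For prdx1 in the control, replicate 2 was the lowest with 284 normalized counts (0.857 of the range), and this is also a pool that stood apart on principal components. For nqo1 at 3.2 µM, replicate 1 was the highest with 562 normalized counts (0.927 of the range).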

How the results depend on the processing

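Among the 10 genes, no direction of a called gene was reversed under any alternative run. The number of the 10 genes called at 50 µM was 6 with 7 of 11 alternatives, 4 with adjustment over 7 concentrations, with an adjusted p-value under 0.01 or with only the 2 groups compared, and 5 without the 4 pools set apart. Over all genes, 562 were called at 50 µM in the main fit. With the last 4 alternatives, in that order, 286, 245, 182 and 369 of all genes were called. At 3.2 µM, 1 of the 10 (nfe2l2b) was called in place of 0 on log2(normalized count + 1) or + 0.5, with 34 of all genes in place of 19. At 8 µM, 0 of the 10 were called with only the 2 groups compared and 2 without the 4 pools set apart (21 and 99 of all genes, against 78). The range was 1 to 2 when each pool was left out (2 without 8 µM replicate 4, with 336 of all genes). At 20 µM, 1 of the 10 was called with an adjusted p-value under 0.01 (68 of all genes, against 133). The range was 1 to 3 when each pool was left out. The number was 1 without control replicate 2 or 20 µM replicates 2 or 3 (89, 92 and 87 of all genes). For the further pathway genes, the number called at 1.28 µM was 2 with voom and 1 with quantile normalization, in place of 0 (43 and 61 of all genes, against 19). At 3.2 µM it was 2 on log2(normalized count + 1) and on + 0.5, 1 with quantile normalization and 2 with adjustment over 7 concentrations. Over all genes these gave 34, 34, 27 and 38 calls, against 19. The range for the further pathway genes was 0 to 1 when each pool was left out (1 without control replicate 3 or 3.2 µM replicate 3). At 8 µM it was 1 with only the 2 groups compared, with a range of 1 (without control replicate 2) to 6 (without 8 µM replicate 4). At 20 µM it was 2 with an adjusted p-value under 0.01, with a range of 2 to 4 (2 without control replicate 2 or 20 µM replicates 2, 3 or 4). The shift of keap1b minus keap1a was -0.3627 on log2(normalized count + 1) and passed an unadjusted exact p-value of 0.05. Apart from the effect of construction (fewer pools, a stricter threshold), the cause was not tested. By the median, pools with the same replicate number were no more alike than others. Their deviations had a median correlation of 0.00225 over 112 pairs, and those with other numbers 0.00492 over 336 pairs. Single pairs ranged from -0.514 to 0.331 and from -0.441 to 0.609, so the medians cannot decide whether some pools were paired. With the replicate block, 6 of the 10 genes were called at 50 µM, 3 at 20 µM, 1 at 8 µM and 7 for the trend, as without it. Few reads limit nfe2l2b below 3.2 µM.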
